A study of Mus musculus with 9 samples.

Results

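Chromatin remodelers and histone deacetylases are described here as the genes whose symbol on the array platform starts with Smarc, Chd and a digit, Arid1, Arid2, Mta and a digit, Hdac, Gatad2, Sirt, or Mbd and a digit. The platform table names 47 such genes through 70 probes, and 41 of them were detected (detection p under 0.01) on at least 2 of 9 arrays. These 41 stand among 9488 genes tested in all. Chd6, Hdac9, Mbd2, Mbd3l2 and Mbd6 were detected on 0 arrays. Hdac10 lay just outside the detection rule with 1 array (mean log2 signal 4.58 in GSC, 4.82 in gPS and 5.10 in ESC), and Arid1a just inside it with 2. Arid1b, Chd3, Gatad2a and Smarca5 have no named probe in the tables used here and were not analysed here.

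RNA of mouse cell lines was measured on single-colour Illumina bead arrays with 25697 probes. Germ stem cells (GSC), which the labels call unipotent and the series title places in the adult germline, were measured as 4 lines with 1 array each. The 3 lines of germ pluripotent stem cells (gPS) were clonal, each sorted by GFP fluorescence before the array, and the pluripotent reference was embryonic stem cells (ESC) on 2 arrays described as a duplicate. Strain, sex, passage, culture medium, the promoter of the GFP reporter and the GSC line behind each gPS line are not given in the sources used here. Every line is 1 array, so the p-values measure the spread between these arrays, and the ESC duplicate may be technical. The number of arrays limits the precision.

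SWI/SNF complexes use the ATPase Smarca4 (BRG1) or Smarca2 (BRM) to slide or evict nucleosomes, and fill several other positions with 1 paralog out of a small family. The NuRD complex joins the remodeler Chd4, or a paralog of it, to the histone deacetylases Hdac1 and Hdac2, with Mta, Gatad2 and Mbd subunits. Mouse embryonic stem cells are known for a SWI/SNF form built on Smarca4, Smarcc1 and Smarcd1, and NuRD with Mbd3 is known for its part in the exit from pluripotency. Sirtuins deacetylate proteins with NAD as a cofactor, and several of them work outside the nucleus.

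Before normalization the arrays had median signals of 83.6 to 101, and 9871 to 11813 probes were detected per array. Of the genes described here, 39 to 41 were detected on each GSC array, 34 to 37 on each gPS array and 36 on each ESC array. GSC 1 and GSC 3 were more alike (correlation across genes 0.995, SD of the log2 difference 0.213) than the ESC duplicate (0.987 and 0.338). Whether they are independent lines was not tested, and counts with both averaged are given beside the main counts. All 7 germ cell markers were detected on every GSC array and 0 to 2 of them on gPS and ESC arrays, while 7 to 8 of 8 pluripotent cell markers were detected on gPS arrays, 8 on ESC arrays and 4 to 6 on GSC arrays. Of 15 fibroblast and feeder markers 11 were tested and 8 to 10 detected per array. Their summed level was 5381, 1050, 4501 and 309 on GSC 1 to 4, 3296, 2256 and 1576 on gPS 1 to 3, and 2492 and 2136 on the ESC arrays. The groups overlapped in this sum, and its part in the results was not tested. These sums hold markers that moved in opposite directions, such as Acta2 (log2 5.06 to 7.95 in GSC and 9.69 to 10.76 in gPS and ESC) and Pdgfra (5.57 to 7.52 in GSC and 4.32 to 4.69 in gPS and ESC). Of 7 Sertoli cell markers 4 were tested, with a summed level of 323 to 414 in GSC, 242 to 1001 in gPS and 1756 to 2211 in ESC. The sum in ESC was carried by Rhox5 (log2 10.64 and 10.997), while Wt1 was lower in ESC (5.60 and 5.74) than in GSC (8.15 to 8.66). None of 5 Leydig cell markers passed the detection rule.

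Between gPS and GSC, 11 of the 41 genes were higher in gPS and 11 lower at a limma adjusted p under 0.05 (Benjamini-Hochberg over all 9488 genes), and 19 did not pass. Of all genes tested, 25.6% were higher and 30.8% lower, so the members' share lay close to that of the array as a whole. The 11 that rose were Smarcad1, Smarca1, Mbd3, Chd1, Smarcd1, Arid2, Mta1, Smarcb1, Mta3, Sirt5 and Hdac1. The 11 that fell were Hdac7, Smarcd3, Hdac5, Hdac6, Chd1l, Smarca2, Gatad2b, Chd5, Hdac2, Mbd1 and Sirt7. With GSC 1 and GSC 3 averaged, 12 were higher and 11 lower. Median scaling in place of quantile normalization, which moved the median of all genes by -0.32 on the log2 scale, gave 7 higher and 20 lower, and Hdac1, Smarcb1, Sirt5 and Mta3 then lost their call (adjusted p = 0.203, 0.0551, 0.273 and 0.231), while Hdac3, Hdac11, Mta2, Sirt1, Sirt2, Sirt3, Sirt6, Smarcal1 and Smarcd2 passed as lower. Of the falls, Chd5 and Hdac7 passed the detection rule through GSC, the group where they are high. Their place among the falls is therefore a description. The groups did not overlap for 24 of the 41 genes, against 55.7% of all genes. The median log2 difference (gPS minus GSC) was -0.11 over the 41 genes and -0.07 over all genes, and the median size of the difference was 0.71 against 0.63.

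Between ESC and GSC, 13 were higher in ESC, 13 lower and 15 did not pass (limma, adjusted p under 0.05), where 24.9% of all genes were higher and 29.7% lower (54.5% in either direction). With GSC 1 and GSC 3 averaged, 12 were higher and 12 lower, and with median scaling 7 were higher and 21 lower. The number higher was 8 with the ESC duplicate averaged and 8 without ESC 2. Under median scaling Arid1a, Mta1, Mta3, Sirt5, Smarcb1 and Smarcc1 lost their call (adjusted p from 0.0696 to 0.949), while Chd8, Hdac3, Hdac8, Mbd4, Sirt2, Sirt3, Smarca4 and Smarce1 passed as lower. Of the falls in ESC, Chd5, Hdac7 and Hdac11 passed the detection rule through GSC, so their place among them is a description. The ESC and GSC arrays did not overlap for 33 of the 41 genes, against 69% of all genes. The median log2 difference (ESC minus GSC) was -0.28 over the members and -0.11 over all genes. Both comparisons share the 4 GSC arrays, so their values are not independent of each other. In bulk RNA, fewer cells of a type and less RNA per cell cannot be told apart in any of these differences.

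**Figure D1:**
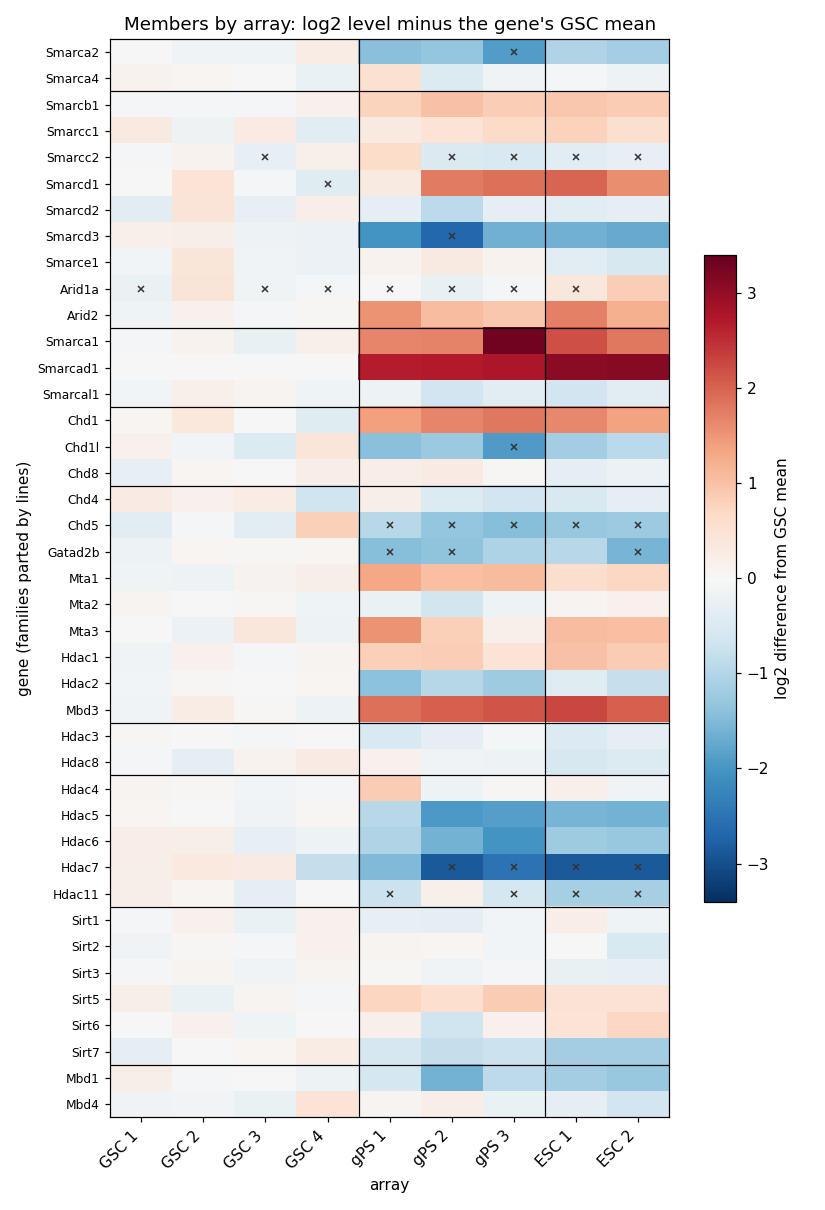
Each row is 1 of the 41 genes, each column 1 array, and the colour is the log2 signal minus the gene's mean over the 4 GSC arrays, with a cross where the probe was not detected (detection p of at least 0.01). Smarcad1, Mbd3, Chd1 and Smarca1 stood above their GSC mean on all gPS and ESC arrays, and Hdac7, Smarcd3, Hdac5 and Hdac6 below it.

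**Figure D2:**
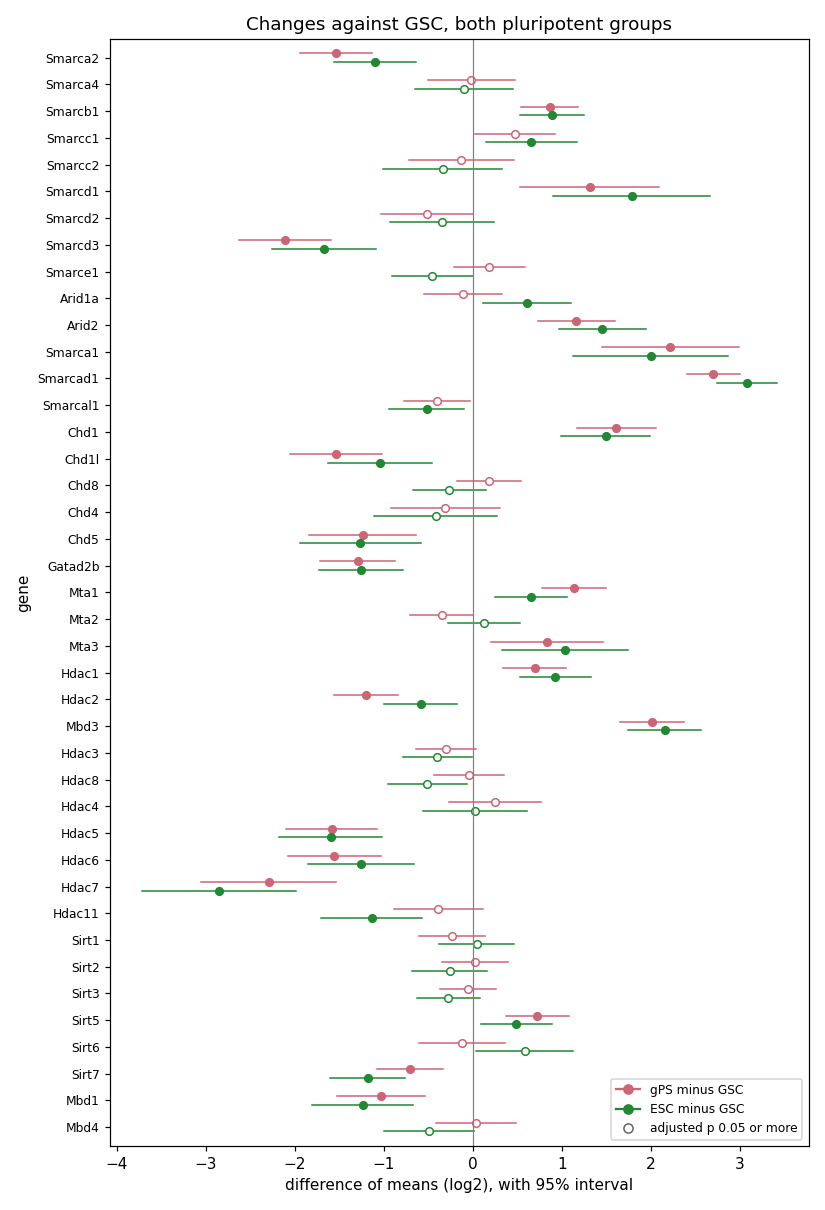
The log2 difference of gPS minus GSC and of ESC minus GSC is plotted for each gene with its 95% interval, with open points where the limma adjusted p was at least 0.05. The fitted differences from GSC ran from -2.30 (Hdac7) to 2.70 (Smarcad1) in gPS and from -2.85 to 3.08 in ESC.

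The SWI/SNF ATPases changed unequally. Smarca2 fell in gPS and ESC, while Smarca4 did not pass the test in either comparison. The log2 signal of Smarca2 was 6.85, 6.75, 6.72 and 7.12 on GSC 1 to 4, 5.45, 5.55 and 4.97 on gPS 1 to 3, and 5.83 and 5.70 on ESC 1 and 2. All 5 gPS and ESC arrays lay below all 4 GSC arrays, and the probe was not detected on gPS 3. The log2 difference was -1.54 (SE 0.18, adjusted p = 4.57e-05) for gPS and -1.10 (SE 0.21, adjusted p = 0.00122) for ESC, and Smarca2 was at least 2.89-fold lower in gPS. Here and below, such a bound sets each undetected array of the lower group to the lowest normalized signal detected on that array, or to the gene's own signal if that is higher. The log2 signal of Smarca4 was 7.15, 7.09, 7.04 and 6.80 on GSC 1 to 4, 7.54, 6.56 and 6.90 on gPS 1 to 3, and 6.98 and 6.86 on ESC 1 and 2. Its groups overlapped, with gPS 1 the highest array of all and gPS 2 the lowest (log2 difference -0.02, SE 0.22, adjusted p = 0.954, 95% interval -0.50 to 0.47). Within arrays, the change of Smarca4 exceeded that of Smarca2 by 1.52 (SE 0.34, exact permutation p = 0.0286) in gPS and 1.00 in ESC on the log2 scale. Signals of different probes are not compared with each other as levels, because probes differ in their response.

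Promoter sequence of 3 SWI/SNF genes that changed differently is shown as the 150 bases just before the outermost annotated start in RefSeq (mouse build GRCm38.p6), 5′ to 3′ on the strand of the gene, for Smarca4 (chr9:21615956-21616105, + strand), Smarca2 (chr19:26604923-26605072, + strand) and Smarcd1 (chr15:99702137-99702286, + strand). Capitals mark a GC box (GGGCGG) or a CCAAT box (CCAAT) on either strand.
Smarca4: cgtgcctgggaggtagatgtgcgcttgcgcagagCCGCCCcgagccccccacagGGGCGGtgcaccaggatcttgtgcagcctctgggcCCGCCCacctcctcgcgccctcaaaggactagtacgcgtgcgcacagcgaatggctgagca
Smarca2: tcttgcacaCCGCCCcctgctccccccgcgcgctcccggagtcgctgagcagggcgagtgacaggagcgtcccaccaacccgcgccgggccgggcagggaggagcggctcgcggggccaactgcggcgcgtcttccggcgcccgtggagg
Smarcd1: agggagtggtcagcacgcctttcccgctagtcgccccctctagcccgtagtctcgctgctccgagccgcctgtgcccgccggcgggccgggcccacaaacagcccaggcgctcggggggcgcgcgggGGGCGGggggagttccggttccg
The windows of Smarca4, Smarca2 and Smarcd1 held 3, 1 and 1 GC boxes and 0 CCAAT boxes. The shares given next use the 150 bases before the start of each promoter entry, which need not be the outermost start of the gene. Among all 32851 RefSeq promoters in the table used here, 28.6% of these entry windows held a GC box and 24.5% a CCAAT box. RefSeq promoters were matched by symbol for 34 of the 41 genes, with 44 entries, of which 29 held a GC box and 12 a CCAAT box. An E-box (CACGTG) was found in 1 of the 44 against 4.3% of all, and a TATA box (TATAAA) in 0 against 7.57%. A match is a description of these letters and shows no binding.

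The Smarcd position, taken by Smarcd1 (BAF60A), Smarcd2 (BAF60B) or Smarcd3 (BAF60C), held a gene that rose, a gene that did not pass and a gene that fell. Smarcd1 gave log2 signals of 5.22, 5.70, 5.19 and 4.82 on GSC 1 to 4, 5.55, 6.99 and 7.11 on gPS 1 to 3, and 7.21 and 6.83 on ESC 1 and 2. It was not detected on GSC 4, and gPS 1 lay within the GSC range while gPS 2, gPS 3 and both ESC arrays lay above it. The rise was 1.31 on the log2 scale (SE 0.35, adjusted p = 0.00887) in gPS, at least 2.43-fold higher, and 1.78 on the log2 scale (SE 0.40, adjusted p = 0.00336) in ESC, at least 3.37-fold higher. Its 2 further probes were higher in gPS by 1.01 and 1.19 on the log2 scale, and both passed the test. Smarcd3, known from heart and muscle development, gave 7.64, 7.68, 7.29 and 7.28 on GSC 1 to 4, 5.44, 4.82 and 5.84 on gPS 1 to 3, and 5.84 and 5.76 on ESC 1 and 2. Every GSC array lay above every gPS and ESC array, and gPS 2 was not detected. Its log2 difference was -2.11 (SE 0.23, adjusted p = 2.49e-05) in gPS, at least 3.93-fold lower, and -1.67 (SE 0.26, adjusted p = 0.000354) in ESC. Smarcd2 gave 9.66, 10.45, 9.74 and 10.25 on GSC 1 to 4, 9.69, 9.12 and 9.72 on gPS 1 to 3, and 9.67 and 9.69 on ESC 1 and 2. gPS 1 and gPS 3 lay just inside the GSC range and gPS 2 below it, and the difference did not pass (gPS minus GSC -0.51, SE 0.23, adjusted p = 0.0811). It passed as lower without GSC 1 (-0.64, adjusted p = 0.04999) and under median scaling (-0.85, adjusted p = 0.0152). Against each other, Smarcd1 exceeded Smarcd2 in its change from GSC to gPS by 1.83 (SE 0.57, exact permutation p = 0.0286) in gPS and 2.13 in ESC. The change of Smarcd1 exceeded that of Smarcd3 by 3.42 (SE 0.52, exact permutation p = 0.0286) in gPS and 3.46 in ESC, and that of Smarcd2 exceeded that of Smarcd3 by 1.59 (SE 0.27, exact permutation p = 0.0286) in gPS and 1.33 in ESC.

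Of the scaffold subunits, Smarcc1 (BAF155) stood at 9.34, 8.88, 9.33 and 8.65 on GSC 1 to 4, 9.36, 9.50 and 9.70 on gPS 1 to 3, and 9.83 and 9.58 on ESC 1 and 2. The 2 lowest arrays were GSC 2 and GSC 4, and the GSC and gPS groups nearly met at GSC 1 and gPS 1 without overlapping. The log2 difference was 0.47 (SE 0.20, adjusted p = 0.0699) in gPS and 0.66 (SE 0.23, adjusted p = 0.0319) in ESC, so that Smarcc1 rose in ESC by the test and did not pass in gPS. The ESC call was lost without GSC 2 or GSC 4 (adjusted p = 0.0695 and 0.0537). Without ESC 1 or ESC 2 the ESC difference was 0.53 and 0.78. A second Smarcc1 probe, detected on 9 arrays, did not pass in ESC (0.43, adjusted p = 0.175 over all probes). Smarcc1 also lost its ESC call with the authors' values (adjusted p = 0.0528). Its partner paralog Smarcc2 (BAF170) gave 4.83, 4.97, 4.59 and 5.04 on GSC 1 to 4, 5.49, 4.36 and 4.35 on gPS 1 to 3, and 4.46 and 4.58 on ESC 1 and 2. It was detected on 3 GSC arrays and on gPS 1, and gPS 1 was the highest array of all while gPS 2 and gPS 3 were the lowest. Neither comparison passed (gPS minus GSC -0.13, SE 0.27, adjusted p = 0.705). Without gPS 1 the test passed as lower (adjusted p = 0.0341), but the remaining gPS arrays were not detected and give no size.

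Arid2, the defining subunit of the PBAF form of SWI/SNF, rose. Its log2 signal was 6.52, 6.82, 6.63 and 6.72 on GSC 1 to 4, 8.20, 7.71 and 7.60 on gPS 1 to 3, and 8.38 and 7.87 on ESC 1 and 2, with every gPS and ESC array above every GSC array. The rise was 1.16 on the log2 scale (SE 0.20, adjusted p = 0.000508) in gPS and 1.46 on the log2 scale (SE 0.22, adjusted p = 0.000289) in ESC. Arid1a, the corresponding subunit of the BAF form, gave 4.30, 4.95, 4.39 and 4.45 on GSC 1 to 4, 4.50, 4.26 and 4.46 on gPS 1 to 3, and 4.90 and 5.37 on ESC 1 and 2. It was detected on GSC 2 and ESC 2 and on no other array, so its values are mostly at the background of the array. In gPS the difference was -0.11 (SE 0.20, adjusted p = 0.647). In ESC it was 0.61 (SE 0.22, adjusted p = 0.0384), with GSC 2 inside the ESC range. ESC 1 was not detected, so no bound on the size is given. The ESC call was lost without GSC 1, GSC 3 or GSC 4 (adjusted p from 0.0602 to 0.0905). It was also lost without background correction (adjusted p = 0.111) and with only the compared groups fitted (0.0502). Without ESC 2 the difference was 0.38. Smarcb1 (BAF47), a core subunit, rose from 8.40 ± 0.10 in GSC to 9.26 ± 0.12 in gPS and 9.29 ± 0.05 in ESC (SD, n = 4, 3 and 2, here and below), by 0.86 on the log2 scale (SE 0.14, adjusted p = 0.000462) in gPS and 0.89 on the log2 scale (SE 0.16, adjusted p = 0.000925) in ESC, without overlap. Smarce1 (BAF57) had means of 8.45 ± 0.29 in GSC, 8.64 ± 0.11 in gPS and 7.99 ± 0.14 in ESC, with differences of 0.19 (SE 0.18, adjusted p = 0.404) in gPS and -0.46 (SE 0.21, adjusted p = 0.0826) in ESC. A second Smarce1 probe was lower in ESC than in GSC by a log2 difference of -0.70 (adjusted p = 0.0103 over all probes), so the probes of Smarce1 differ in their call.

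**Figure D3:**
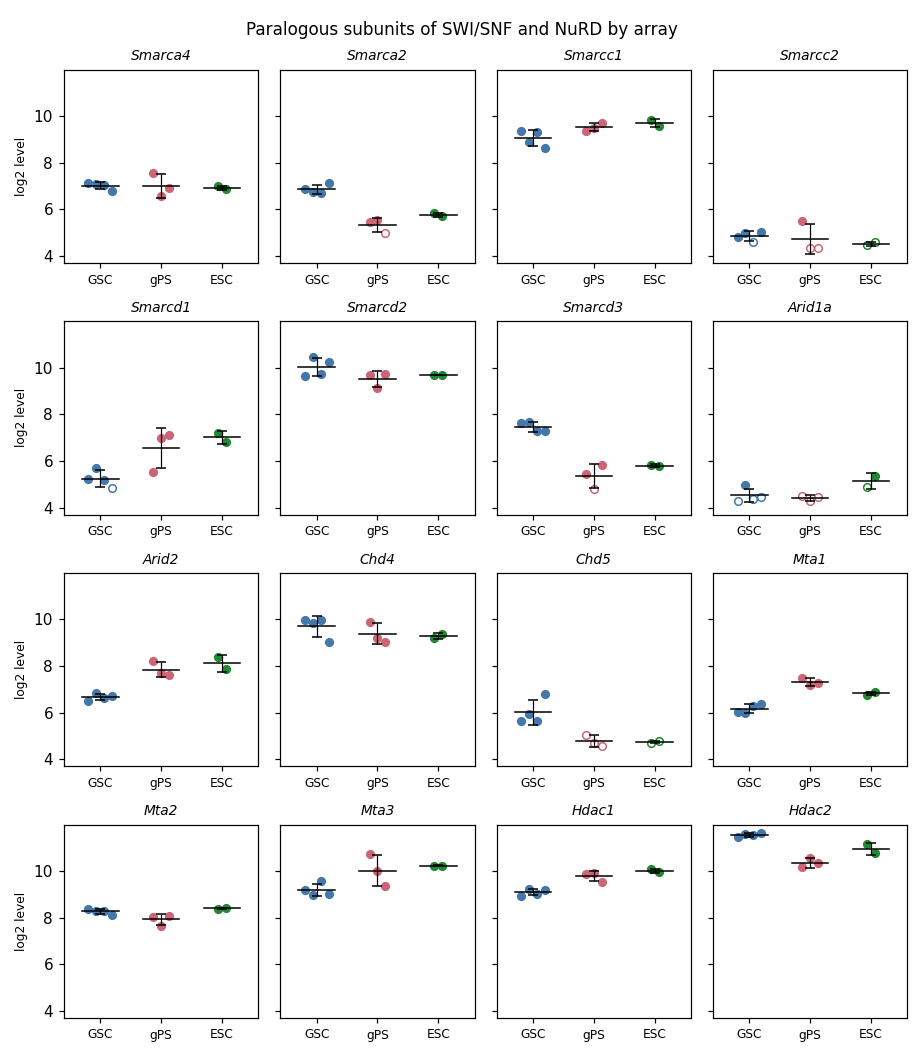
Log2 signal on each array for paralogs of the same complex position, with bars for the mean ± SD of each group and open points where the probe was not detected. Smarcd3, Smarca2, Chd5 and Hdac2 lay lower on all gPS arrays than on all GSC arrays, and Mta1 and Hdac1 higher.

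Among remodelers outside SWI/SNF and NuRD, Smarcad1, a SNF2-family ATPase known for silencing endogenous retroviruses in mouse embryonic stem cells, rose most of the 41 genes in both comparisons. The 150 bases before its outermost start (chr6:65042441-65042590, + strand, GRCm38.p6, RefSeq) held none of the 4 motifs searched, and are shown for that contrast with the windows above.
Smarcad1: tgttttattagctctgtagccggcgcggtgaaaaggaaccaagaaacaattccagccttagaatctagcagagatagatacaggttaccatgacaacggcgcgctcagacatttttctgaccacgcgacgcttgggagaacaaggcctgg
The log2 signal of Smarcad1 was 6.82, 6.82, 6.78 and 6.79 on GSC 1 to 4, 9.46, 9.49 and 9.56 on gPS 1 to 3, and 9.86 and 9.91 on ESC 1 and 2. The 4 GSC lines lay within 0.04 of each other, and the lowest gPS or ESC array stood far above them. The rise was 2.70 on the log2 scale (SE 0.13, adjusted p = 9.05e-08) in gPS, which is 6.51-fold, and 3.08 on the log2 scale (SE 0.15, adjusted p = 1.24e-07) in ESC, which is 8.46-fold. Smarca1 (SNF2L), an ATPase of the ISWI family, gave 5.32, 5.51, 5.14 and 5.56 on GSC 1 to 4, 7.05, 7.08 and 8.67 on gPS 1 to 3, and 7.58 and 7.19 on ESC 1 and 2. All gPS and ESC arrays lay above GSC, and gPS 3 stood above the other gPS lines and both ESC arrays. The rise was 2.22 on the log2 scale (SE 0.35, adjusted p = 0.000306) in gPS and 2.00 on the log2 scale (SE 0.39, adjusted p = 0.00151) in ESC. Smarcal1, an annealing helicase that restarts stalled replication forks, had means of 7.74 ± 0.15 in GSC, 7.34 ± 0.23 in gPS and 7.23 ± 0.17 in ESC. It fell in ESC by 0.52 on the log2 scale (SE 0.19, adjusted p = 0.0399) and did not pass in gPS (-0.40, SE 0.17, adjusted p = 0.0637). The ESC call was lost without GSC 1, GSC 2, GSC 3, ESC 1 or ESC 2 (adjusted p from 0.0585 to 0.242), and the gPS difference passed without GSC 4 or gPS 1 (0.0351 to 0.0488).

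Of the CHD remodelers outside NuRD, Chd1, known for keeping chromatin open in mouse embryonic stem cells, gave 5.83, 6.12, 5.75 and 5.36 on GSC 1 to 4, 7.16, 7.41 and 7.57 on gPS 1 to 3, and 7.39 and 7.13 on ESC 1 and 2. All GSC arrays lay below all others. The rise was 1.61 on the log2 scale (SE 0.20, adjusted p = 5.84e-05) in gPS and 1.49 on the log2 scale (SE 0.23, adjusted p = 0.000275) in ESC. Chd1l (ALC1), a remodeler activated by poly(ADP-ribose) after DNA damage, gave 6.99, 6.78, 6.39 and 7.28 on GSC 1 to 4, 5.44, 5.58 and 4.93 on gPS 1 to 3, and 5.68 and 5.95 on ESC 1 and 2. The GSC lines lay above all others, and gPS 3 was not detected. Against GSC, its log2 difference was -1.54 (SE 0.23, adjusted p = 0.000246) in gPS, at least 2.87-fold lower, and -1.04 (SE 0.27, adjusted p = 0.00678) in ESC, where the call was lost without ESC 1 (adjusted p = 0.0706). A second Chd1l probe, detected on 5 arrays, passed as lower in gPS (log2 difference -0.92) and did not pass in ESC (-0.31, adjusted p = 0.252). Chd8, a CHD remodeler studied for its part in autism and Wnt signalling, had means of 8.70 ± 0.21 in GSC, 8.88 ± 0.13 in gPS and 8.44 ± 0.10 in ESC and passed in neither comparison (gPS minus GSC 0.18, SE 0.16, adjusted p = 0.369).

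In NuRD, 4 of 9 tested subunits rose in gPS (Mbd3, Mta1, Mta3 and Hdac1), 3 fell (Gatad2b, Chd5 and Hdac2) and 2 did not pass (Chd4 and Mta2), and in ESC Mbd3, Mta1, Mta3 and Hdac1 rose, Gatad2b, Chd5 and Hdac2 fell, and Chd4 and Mta2 did not pass. The share called was 77.8% in both comparisons, against 56.3% of all genes in gPS and 54.5% in ESC, and with 9 genes it is given as a description. The promoters of Mbd3 (chr10:80399532-80399681, - strand) and Mta1 (chr12:113098098-113098247, + strand), which rose most within NuRD in gPS, are shown in the same way (150 bases, GRCm38.p6, RefSeq).
Mbd3: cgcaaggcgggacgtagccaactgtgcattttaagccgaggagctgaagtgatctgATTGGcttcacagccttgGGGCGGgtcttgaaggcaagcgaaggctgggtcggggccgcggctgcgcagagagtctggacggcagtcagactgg
Mta1: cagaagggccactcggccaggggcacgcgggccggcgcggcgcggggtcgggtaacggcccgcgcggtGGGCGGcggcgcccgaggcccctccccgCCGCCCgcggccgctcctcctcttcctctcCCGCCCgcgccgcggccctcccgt
The Mbd3 window held 1 GC box and 1 CCAAT box, and the Mta1 window 3 GC boxes and 0 CCAAT boxes. Mbd3, the subunit that defines 1 of the NuRD forms and binds methylated DNA poorly, gave 7.73, 8.11, 7.89 and 7.69 on GSC 1 to 4, 9.72, 9.89 and 9.998 on gPS 1 to 3, and 10.13 and 9.90 on ESC 1 and 2. All gPS and ESC arrays stood above all GSC arrays by more than the whole range within any group. The rise was 2.01 on the log2 scale (SE 0.16, adjusted p = 3.13e-06) in gPS, which is 4.04-fold, and 2.16 on the log2 scale (SE 0.19, adjusted p = 5.57e-06) in ESC, which is 4.46-fold. Its alternative, Mbd2, which recruits NuRD to methylated DNA, was detected on no array.

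The deacetylase position changed in opposite directions. Hdac1 gave log2 signals of 8.93, 9.22, 9.02 and 9.16 on GSC 1 to 4, 9.89, 9.91 and 9.54 on gPS 1 to 3, and 10.07 and 9.95 on ESC 1 and 2. All gPS and ESC arrays lay above all GSC arrays, with a rise of 0.70 on the log2 scale (SE 0.16, adjusted p = 0.00358) in gPS and 0.93 on the log2 scale (SE 0.18, adjusted p = 0.00143) in ESC. Hdac2 gave 11.45, 11.57, 11.54 and 11.62 on GSC 1 to 4, 10.15, 10.57 and 10.33 on gPS 1 to 3, and 11.15 and 10.77 on ESC 1 and 2. All 4 GSC arrays lay above all others, and the ESC arrays lay between GSC and gPS without overlap. Against GSC the log2 difference was -1.20 (SE 0.16, adjusted p = 0.000118) in gPS and -0.59 (SE 0.19, adjusted p = 0.0205) in ESC, where the call was lost without ESC 2 (log2 difference -0.40, adjusted p = 0.202). The change of Hdac1 from GSC to gPS exceeded that of Hdac2 by 1.89 (SE 0.14, exact permutation p = 0.0286) in gPS and 1.51 in ESC.

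The Mta position, filled by metastasis-associated proteins that bridge the deacetylases to the remodeler, held rises of Mta1 and Mta3. The log2 signal of Mta1 was 6.02, 5.998, 6.29 and 6.37 on GSC 1 to 4, 7.48, 7.19 and 7.25 on gPS 1 to 3, and 6.77 and 6.88 on ESC 1 and 2. The GSC arrays were lowest, the gPS arrays highest, and the ESC arrays between them. The rise was 1.14 on the log2 scale (SE 0.16, adjusted p = 0.000158) in gPS and 0.65 on the log2 scale (SE 0.18, adjusted p = 0.0116) in ESC, where the call was lost without ESC 2 (adjusted p = 0.0855). Mta3 gave 9.19, 8.98, 9.57 and 9.01 on GSC 1 to 4, 10.72, 9.99 and 9.35 on gPS 1 to 3, and 10.24 and 10.21 on ESC 1 and 2, with gPS 3 inside the GSC range and gPS 1 the highest array. The rise was 0.83 on the log2 scale (SE 0.28, adjusted p = 0.0276) in gPS and 1.03 on the log2 scale (SE 0.32, adjusted p = 0.0189) in ESC. The gPS call was lost without GSC 1, GSC 2, GSC 4, gPS 1 or gPS 2 (adjusted p from 0.0515 to 0.105) and the ESC call without either ESC array (0.0863 to 0.0956). A second Mta3 probe, detected on 4 arrays, was higher by a log2 difference of 1.43 in gPS and 0.45 in ESC, where it did not pass. Mta2 gave 8.36, 8.28, 8.30 and 8.13 on GSC 1 to 4, 8.04, 7.63 and 8.08 on gPS 1 to 3, and 8.37 and 8.41 on ESC 1 and 2. The gPS arrays lay below all other arrays, but the difference did not pass (gPS minus GSC -0.35, SE 0.16, adjusted p = 0.0867, ESC minus GSC 0.12, SE 0.18, adjusted p = 0.584). The change of Mta1 exceeded that of Mta2 by 1.49 (SE 0.19, exact permutation p = 0.0286) in gPS and 0.53 in ESC. The change of Mta1 minus that of Mta3 was 0.30 (SE 0.32, exact permutation p = 0.429, adjusted p = 0.429) in gPS and -0.38 in ESC, and the change of Mta2 minus that of Mta3 was -1.18 (SE 0.39, exact permutation p = 0.0571, adjusted p = 0.0786) in gPS and -0.91 in ESC. Neither of these contrasts passed.

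Of the NuRD ATPases, Chd4 (Mi-2β) gave 9.98, 9.84, 9.96 and 9.01 on GSC 1 to 4, 9.91, 9.22 and 9.04 on gPS 1 to 3, and 9.19 and 9.37 on ESC 1 and 2. GSC 4 stood far below the other GSC lines, and the groups overlapped. The differences were -0.31 (SE 0.28, adjusted p = 0.360) in gPS and -0.42 (SE 0.31, adjusted p = 0.277) in ESC. GSC 4 was also the array with the lowest summed level of fibroblast and feeder markers (309 against 1050 to 5381 on the other GSC arrays), whose part was not tested. The 2 further probes of Chd4 differed from each other in gPS (log2 difference -1.10, adjusted p = 0.000734, and 0.02), so Chd4 has no single direction on this array. Chd5, the paralog known from brain and from spermatid maturation, gave 5.63, 5.94, 5.66 and 6.81 on GSC 1 to 4, 5.06, 4.70 and 4.56 on gPS 1 to 3, and 4.71 and 4.77 on ESC 1 and 2. It was detected on the 4 GSC arrays and on no gPS or ESC array, with GSC 4 the highest. Chd5 passed the detection rule through GSC alone, the group where it is high, so its place among the falls is a description. It was at least 1.82-fold lower in gPS (adjusted p = 0.00281) and at least 1.80-fold lower in ESC (adjusted p = 0.00540). The unequal change of Chd4 and Chd5 did not pass the pair test, with a log2 difference of 0.93 (SE 0.61, exact permutation p = 0.143, adjusted p = 0.175) in gPS and 0.84 in ESC. Gatad2b (p66β), which links the Mbd subunit to the ATPase, gave 6.29, 6.54, 6.52 and 6.55 on GSC 1 to 4, 5.02, 5.10 and 5.43 on gPS 1 to 3, and 5.54 and 4.90 on ESC 1 and 2. All GSC arrays lay above all others, and gPS 1, gPS 2 and ESC 2 were not detected. The log2 difference was -1.29 (SE 0.19, adjusted p = 0.000198) in gPS, at least 2.28-fold lower, and -1.26 (SE 0.22, adjusted p = 0.000624) in ESC, at least 2.21-fold lower.

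Unequal change within a complex position was tested for 11 paralog pairs as the difference, on each array, between the log2 signals of the pair, compared between the 4 GSC and 3 gPS arrays by an exact two-sided permutation test. Of the 11 pairs, 7 reached p = 0.0286, the lowest possible with 35 splits, and passed after Benjamini-Hochberg adjustment over the 11 (adjusted p = 0.0449, the exact permutation test). These were Smarca4 and Smarca2, the 3 pairs of Smarcd genes, Arid1a and Arid2, Mta1 and Mta2, and Hdac1 and Hdac2. The share of other gene pairs that would reach this p was not computed. Of all single genes, 55.7% did not overlap between gPS and GSC, so 7 of 11 is given as a description. The Arid1a and Arid2 contrast was -1.28 (SE 0.17, exact permutation p = 0.0286, adjusted p = 0.0449) in gPS and -0.84 in ESC. Arid1a was undetected on all 3 gPS arrays and on 3 GSC arrays, so this contrast sets Arid2 against background and gives no measure of Arid1a, which leaves 6 pairs with both genes detected in both groups. Smarcc1 and Smarcc2 did not pass, with 0.60 (SE 0.50, exact permutation p = 0.343, adjusted p = 0.377) in gPS and 1.00 in ESC. The pairs share genes and are not independent. All 7 have the same p, so each pass depends on how many pairs reach it. Arid1a with Arid2 and the 3 linked Smarcd pairs are among them. Without background correction of the arrays no pair passed, with 6 at an exact permutation p of 0.0286 and an adjusted p of 0.0524. For ESC against GSC no p under 0.0667 is possible with 15 splits, so the ESC values are given without a test. The 5 pairs of Arid1a with Arid1b, Smarca5 with Smarca1, Chd4 with Chd3, Gatad2a with Gatad2b and Mbd3 with Mbd2 were not tested.

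Class II histone deacetylases, which have tissue-restricted roles and shuttle between nucleus and cytoplasm, were counted together with class IV. Of 5 tested members, 3 fell in gPS (Hdac7, Hdac5 and Hdac6), 4 fell in ESC (Hdac11 as well) and none rose, by the limma test, where 30.8% of all genes were lower in gPS and 29.7% in ESC. Hdac7 and Hdac11 passed the detection rule through GSC, the group where they are high, since each was detected on 1 other array. Their place among the falls, and the counts that hold them, are therefore a description. Hdac5, a class IIa enzyme that represses Mef2 targets in muscle, is shown with the 150 bases before its start (chr11:102230173-102230322, - strand, GRCm38.p6, RefSeq), which held 1 GC box and 2 CCAAT boxes.
Hdac5: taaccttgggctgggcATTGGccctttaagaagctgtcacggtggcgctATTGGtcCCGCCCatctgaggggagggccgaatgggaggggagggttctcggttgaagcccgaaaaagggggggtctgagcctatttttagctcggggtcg
The log2 signal of Hdac5 was 9.47, 9.37, 9.27 and 9.45 on GSC 1 to 4, 8.46, 7.45 and 7.51 on gPS 1 to 3, and 7.80 and 7.78 on ESC 1 and 2. All GSC arrays lay above all others, and gPS 1 stood above the other gPS lines. The log2 difference was -1.59 (SE 0.23, adjusted p = 0.000189) in gPS and -1.60 (SE 0.26, adjusted p = 0.000465) in ESC, and of its 2 further probes 1 passed in gPS (log2 difference -1.14) and 1 did not (-0.36). Hdac7, a class IIa enzyme known from thymocytes and blood vessels, gave 7.39, 7.52, 7.45 and 6.37 on GSC 1 to 4, 5.67, 4.32 and 4.67 on gPS 1 to 3, and 4.33 and 4.33 on ESC 1 and 2. GSC 4 was the lowest GSC array and still lay above every gPS and ESC array, of which gPS 1 alone was detected. Its log2 difference from GSC was -2.30 (SE 0.35, adjusted p = 0.000230) in gPS, at least 3.70-fold lower, while in ESC, where it was not detected, it was at least 4.06-fold lower (adjusted p = 0.000138). As with Chd4, the low GSC 4 value went with the lowest fibroblast and feeder sum. GSC 2, with the next lowest sum (1050), had the highest Hdac7 value (7.52). The part of those cells was not tested.

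Hdac6, the mainly cytoplasmic tubulin deacetylase, gave 8.34, 8.32, 7.85 and 7.95 on GSC 1 to 4, 7.10, 6.50 and 6.08 on gPS 1 to 3, and 6.90 and 6.82 on ESC 1 and 2. The GSC arrays lay above all others, and both ESC arrays lay within the range of the gPS lines. Its log2 difference was -1.56 (SE 0.24, adjusted p = 0.000258) in gPS and -1.26 (SE 0.27, adjusted p = 0.00256) in ESC. A second probe fell by 0.83 on the log2 scale in gPS and did not pass in ESC (-0.27). Hdac11, the single class IV enzyme, had log2 signals of 5.75, 5.61, 5.24 and 5.56 on GSC 1 to 4, 4.80, 5.71 and 4.93 on gPS 1 to 3, and 4.40 and 4.41 on ESC 1 and 2. It was detected on the GSC arrays and gPS 2, was at least 1.30-fold lower in ESC (adjusted p = 0.00349), and did not pass in gPS (-0.39, SE 0.23, adjusted p = 0.165). Without gPS 2 the gPS difference passed (-0.67, adjusted p = 0.0133). Hdac4, another class IIa enzyme, had means of 6.73 ± 0.08 in GSC, 6.98 ± 0.55 in gPS and 6.76 ± 0.21 in ESC and did not pass (gPS minus GSC 0.25, SE 0.23, adjusted p = 0.385), with gPS 1 at 7.61 above all other arrays. The class I enzymes outside NuRD did not pass either. Hdac3, the catalytic subunit of NCoR complexes, had means of 9.62 ± 0.04 in GSC, 9.32 ± 0.22 in gPS and 9.22 ± 0.09 in ESC. The differences were -0.30 (SE 0.15, adjusted p = 0.118) in gPS and -0.40 (SE 0.17, adjusted p = 0.0736) in ESC, without overlap. Hdac3 passed as lower without background correction (adjusted p = 0.0420 in gPS and 0.0225 in ESC) and under median scaling (0.00353 and 0.00351). In ESC it also passed without a detection filter (0.0365) and with only the compared groups fitted (0.0416). Hdac8, which deacetylates cohesin, had means of 5.88 ± 0.26 in GSC, 5.84 ± 0.17 in gPS and 5.37 ± 0.06 in ESC, with -0.04 (SE 0.18, adjusted p = 0.850) in gPS and -0.51 (SE 0.20, adjusted p = 0.0526) in ESC. Without GSC 2 the ESC difference of Hdac8 passed (-0.62, adjusted p = 0.0247). Without gPS 1, which enters this test through the shared spread alone, it passed at an unchanged -0.51 (adjusted p = 0.0461).

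**Figure D4:**
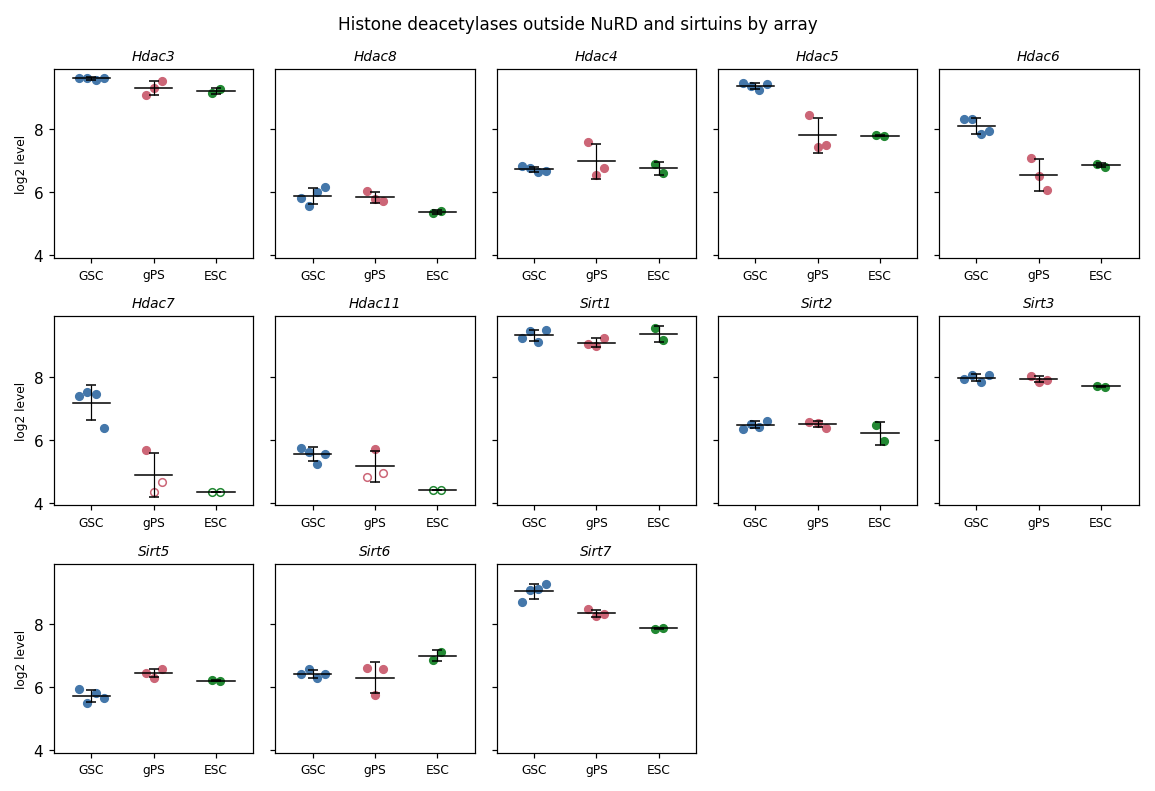
Log2 signal on each array for deacetylases, with bars for the mean ± SD of each group and open points where the probe was not detected. Hdac3, Hdac5, Hdac6, Hdac7 and Sirt7 lay lower on all gPS and ESC arrays than on all GSC arrays, and Sirt5 higher.

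Of 6 sirtuins, Sirt5 rose, Sirt7 fell and 4 did not pass in either comparison, a called share of 33.3% against 56.3% of all genes in gPS and 54.5% in ESC. Sirt5, a mitochondrial enzyme that removes succinyl groups, had log2 signals of 5.93, 5.48, 5.81 and 5.66 on GSC 1 to 4, 6.46, 6.30 and 6.58 on gPS 1 to 3, and 6.22 and 6.20 on ESC 1 and 2. All gPS and ESC arrays lay above all GSC arrays. The rise was 0.73 on the log2 scale (SE 0.16, adjusted p = 0.00278) in gPS and 0.49 on the log2 scale (SE 0.18, adjusted p = 0.0410) in ESC, where the call was lost without GSC 2, GSC 3, GSC 4, ESC 1 or ESC 2 (adjusted p from 0.0582 to 0.155) and turned direction under median scaling (-0.0165). Sirt7, a nucleolar enzyme, gave 8.72, 9.08, 9.13 and 9.30 on GSC 1 to 4, 8.48, 8.26 and 8.32 on gPS 1 to 3, and 7.87 and 7.89 on ESC 1 and 2. The order was GSC, gPS, ESC from high to low with no overlap, and the log2 difference was -0.71 (SE 0.17, adjusted p = 0.00453) in gPS and -1.18 (SE 0.19, adjusted p = 0.000422) in ESC. Sirt1, a nuclear deacetylase, had means of 9.32 ± 0.18 in GSC, 9.09 ± 0.14 in gPS and 9.37 ± 0.25 in ESC (gPS minus GSC -0.24, SE 0.17, adjusted p = 0.247). Sirt2, mainly cytoplasmic, had 6.47 ± 0.11 in GSC, 6.50 ± 0.10 in gPS and 6.21 ± 0.37 in ESC (0.02, SE 0.17, adjusted p = 0.916, and -0.51 with an adjusted p of 0.0332 under median scaling), and Sirt3, mitochondrial, had 7.97 ± 0.11 in GSC, 7.92 ± 0.09 in gPS and 7.70 ± 0.02 in ESC (-0.05, SE 0.14, adjusted p = 0.786). Sirt6, a nuclear enzyme, had 6.43 ± 0.12 in GSC, 6.30 ± 0.49 in gPS and 7.01 ± 0.18 in ESC, with -0.12 (SE 0.22, adjusted p = 0.658) in gPS and 0.58 (SE 0.25, adjusted p = 0.0676) in ESC. Its low array was gPS 2 (5.74). Without that array the ESC difference passed (adjusted p = 0.0159) at an unchanged 0.58, since gPS arrays enter this test through the shared spread alone. Its 3 probes disagreed in direction in gPS and agreed in ESC. In gPS they gave -0.12, 0.29 and -0.48, of which the third passed as lower (adjusted p = 0.0261). In ESC they gave 0.58, 0.65 and 0.30, of which the second passed as higher (adjusted p = 0.0294). Outside NuRD, Mbd1, which binds methylated DNA, had means of 7.25 ± 0.16 in GSC, 6.22 ± 0.52 in gPS and 6.01 ± 0.07 in ESC and fell without overlap, with a log2 difference of -1.03 (SE 0.23, adjusted p = 0.00262) in gPS and -1.24 (SE 0.26, adjusted p = 0.00198) in ESC. Mbd4, a DNA glycosylase for mismatches at methylated sites, had means of 6.62 ± 0.31 in GSC, 6.66 ± 0.22 in gPS and 6.13 ± 0.23 in ESC and did not pass (gPS minus GSC 0.03, SE 0.20, adjusted p = 0.901).

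No gene of the 41 was called between gPS and ESC (limma, adjusted p under 0.05), where 0.422% of all genes were higher in gPS and 0.611% lower. The smallest adjusted p was 0.178, for Hdac2. At an unadjusted p under 0.05 there were 10 genes (24.4%), against 15.5% of all genes, and they were Hdac2, Arid1a, Smarce1, Hdac11, Sirt6, Mta1, Mta2, Smarcad1, Sirt7 and Chd8. Of the 41, 22 were higher and 19 lower in gPS, and the groups did not overlap for 17, against 32.6% of all genes. The log2 difference (gPS minus ESC) was -0.61 (SE 0.20, adjusted p = 0.178) for Hdac2 and 0.49 (SE 0.19, adjusted p = 0.261) for Mta1. A p that misses the threshold does not show equal levels: the 95% interval of the difference lay within 1 log2 unit either way for 30 genes and reached beyond it for 11. The 11 were Hdac2, Arid1a, Smarce1, Hdac11, Sirt6, Mbd4, Chd1l, Smarcd3, Hdac7, Smarcd1 and Smarca1. The widest was that of Smarcd1 (-1.41 to 0.46).

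**Figure D5:**
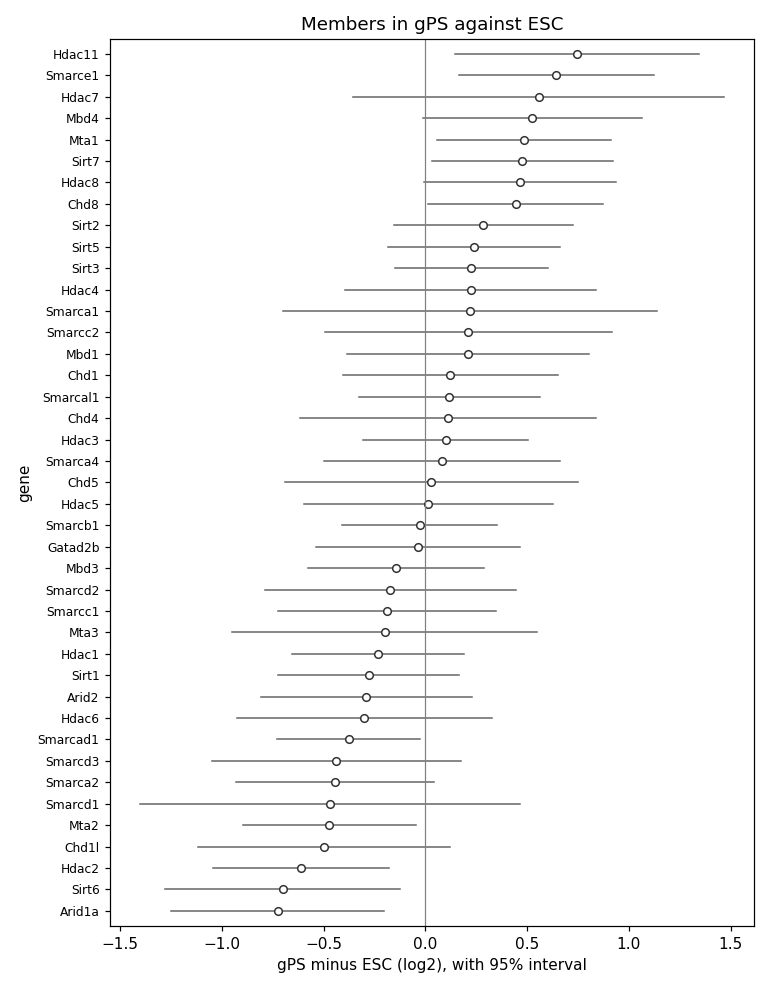
The log2 difference of gPS minus ESC with its 95% interval is plotted for each of the 41 genes. None had a limma adjusted p under 0.05, and 30 intervals lay within 1 log2 unit of 0.

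The median SD of the 41 genes was 0.19 among GSC lines and 0.23 among gPS lines, against 0.22 and 0.26 over all genes. Between gPS lines, the range was widest for Smarca1 (1.62, with gPS 3 high), Smarcd1 (1.56, with gPS 1 low), Mta3 (1.37, with gPS 1 high and gPS 3 low), Hdac7 (1.35, with gPS 1 high), Smarcc2 (1.14, with gPS 1 high) and Hdac4 (1.05, with gPS 1 high). These are log2 values of single arrays and carry no test.

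Genes whose proteins join these complexes were counted from lists outside the symbol rule. Of 9 tested SWI/SNF partner subunits, 3 were higher in gPS than in GSC, 2 lower and 4 did not pass, and in ESC the counts were 1, 2 and 6. Bcl11b and Bcl11a, zinc finger subunits known from lymphocytes and neurons, were detected on 3 and 2 gPS arrays and on no GSC or ESC array, so both passed the detection rule through gPS alone. Their place among the genes higher in gPS is therefore a description. Bcl11b was at least 1.93-fold higher in gPS than in GSC (adjusted p = 3.58e-05). Bcl11a was higher with an adjusted p of 0.0117, but was not detected on every gPS array, so no bound on its size is given. The remaining rise was that of Actl6a, detected on all arrays, by 0.69 (log2, adjusted p = 0.00216) in gPS and 1.45 (log2, adjusted p = 4.12e-05) in ESC. Brd9, a bromodomain subunit, fell by 0.73 (log2, adjusted p = 0.00222) and Ss18l1 fell by 0.54 (log2, adjusted p = 0.0300). Against ESC, Bcl11b was at least 1.55-fold higher in gPS (limma adjusted p = 0.0346). This too is a description, since Bcl11b passed the detection rule through gPS alone.

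Of 7 NuRD partners, 4 rose in gPS, 1 fell and 2 did not pass, with 5, 2 and 0 in ESC. Bend3, a repressor that binds NuRD, rose by 2.37 (log2, adjusted p = 1.81e-05), and Sall1, a zinc finger protein that recruits NuRD, by 1.38 (log2, adjusted p = 0.00364). Cdk2ap2 fell by 0.81 (log2, adjusted p = 0.0172). Of 10 tested genes of the Sin3 complex, which also carries Hdac1 and Hdac2, 3 rose, 3 fell and 4 did not pass in gPS and in ESC. Sap30 rose by 2.49 (log2, adjusted p = 5.68e-07) and Ing1 by 1.30 (log2, adjusted p = 0.000209), while the scaffold Sin3a fell by 1.10 (log2, adjusted p = 0.000129) and Ing2 fell by 0.89 (log2, adjusted p = 0.00103). Of 8 genes of the CoREST and NCoR complexes 1 rose and 2 fell in gPS, with 2 and 2 in ESC. Hmg20b rose by 1.30 (log2, adjusted p = 0.000256), while Gps2 fell by 0.90 (log2, adjusted p = 0.000978) and Tbl1x fell by 0.39 (log2, adjusted p = 0.0462). Of 5 ISWI partners 2 rose and none fell in gPS, with 1 and 1 in ESC. Baz1a rose by 1.20 (log2, adjusted p = 0.0161), and Chrac1 by 0.65 (log2, adjusted p = 0.00408). Baz1a was detected on 2 gPS and 2 GSC arrays and these groups overlapped, so no bound on its size is given. The share called in each of these lists was 37.5% to 71.4% in gPS, against 56.3% of all genes in either direction, and 33.3% to 100% in ESC, against 54.5%, and nothing particular to the lists is read from it.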

How the data were processed

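Per the labels, total RNA was amplified, labelled with biotin and hybridized, with 1 array for each sample. The deposited values are probe intensities that, as their distribution shows, were neither normalized nor background-subtracted. Per the file headers, a detection p-value accompanies every signal. BeadStudio 3.2, RMA and lumi appear in the submitters' processing notes without their roles. The authors' processed table, used as an alternative, has the same quantiles on all arrays, and its values were taken as log2 from their maximum (14.5, median 2.99) because the base is not stated. The genome build is not given in the sources used here.

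Background correction, quantile normalization and the log2 step were done with neqc (limma 3.58.1, R 4.3.3, offset 16), which took its negative controls from the detection p-values. Of 25697 probes, 12695 were detected at p under 0.01 on at least 2 arrays. The platform table gave 23978 probes 1 symbol and did not name 1719. The probe with the highest mean stood for its gene (9488 genes, 738 without a symbol). All 9 arrays entered a limma model of the 3 group means, with Benjamini-Hochberg adjustment over all genes and a threshold of 0.05, so all comparisons share an estimate of the spread. Errors are the SD of arrays or the SE of differences. The fit was tested on simulated data.

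The members, lists and tests were chosen with earlier results of these data known. Every member past the detection rule was named. Values on all arrays are given for both genes of each tested paralog pair and for the 6 largest rises and falls per comparison among called genes without overlap (Hdac11, Sirt5 and Sirt7 were added after their values were seen). Partner genes named are the 2 largest called rises and falls of each list in gPS against GSC, and Bcl11b between gPS and ESC. Actl6a was added after its values were seen. Alternatives covered background correction, the authors' values, median scaling, detection filters, probe choice, arrays in the fit, an intensity trend, a replicate block, averaged arrays, each array left out and a 2-fold minimum.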

Additional observations from a re-analysis of the deposited data

Results flagged for a closer look

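In the 41 genes, the GSC values were checked for a single array far from the other 3, which chance gives in about 1 of 20 groups, and 5 genes had such an array. The check was run on these 41 genes alone. The share over all genes is therefore not known, and nothing particular to the 41 is read from the count. Chd4 stood at log2 9.01 on GSC 4 against 9.84 to 9.98 on the others. Hdac7 stood at 6.37 on GSC 4 against 7.39 to 7.52. Smarcb1 stood at 8.55 on GSC 4 against 8.35 to 8.36, a small difference in size. Gatad2b stood at 6.29 on GSC 1 against 6.52 to 6.55, and Smarce1 at 8.87 on GSC 2 against 8.25 to 8.35.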

How the results depend on the processing

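Of the 22 genes called between gPS and GSC, 17 kept their call under every alternative that could test them, and of the 26 called between ESC and GSC, 15 did. Of these, 7 in each comparison could not be tested where detection was required on all 9 arrays. No alternative called any of the 41 genes between gPS and ESC. Median scaling in place of quantile normalization moved the median difference of all genes by -0.32 in both comparisons with GSC and the share of higher genes among all calls from 45.4% to 27.5% (gPS) and from 45.6% to 27.5% (ESC). It called 7 members higher and 20 lower in gPS, and 7 higher and 21 lower in ESC. Relative to the median of all genes, 0 of the 22 and 0 of the 26 called members changed side. Sirt2 in gPS (log2 difference -0.51, limma adjusted p = 0.0332) and Sirt5 in ESC (-0.0165) turned direction with a call in 1 of the settings. Chd8, Hdac4, Mbd4 and Smarce1 in gPS and Hdac4, Mta2 and Sirt1 in ESC also turned sign, with no call in either setting. Mta3, Hdac1, Sirt5 and Smarcb1 lost their gPS calls under median scaling. With detection required on all 9 arrays, which removes genes, 5 fell in gPS and 7 in ESC. A 2-fold minimum left 7 rises in gPS and 7 in ESC. The ESC arrays averaged left 8 rises in ESC. Without each array in turn, the counts were 10 to 11 higher and 11 to 13 lower in gPS and 8 to 14 higher and 11 to 14 lower in ESC, with the 8 found without ESC 2. Deviations of same-numbered GSC and gPS arrays from their group means correlated at 0.08, -0.07 and -0.16. These values cannot show whether the lines are paired, since the GSC line behind each gPS line is not given. The replicate block gave 10 higher and 11 lower in gPS and 10 and 11 in ESC. Of 11 paralog pairs 7 passed in the main setting. Mta2 with Mta3 also passed with the authors' values (adjusted p = 0.0349, the exact permutation test). The same pair passed under median scaling, with the mean of a gene's probes and with its second probe (0.0393 in each). Chd4 with Chd5 passed with the authors' values alone (0.0349). Without background correction 0 passed (adjusted p = 0.0524), and 0 passed with GSC 1 and GSC 3 averaged, with the replicate block or without any 1 GSC or gPS array, designs that are too small to reach the threshold. Slide as a block was not run, since the files used give no slide. Values near the array background (Arid1a, Chd5, Smarcc2, Hdac7) are limited by detection.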

Other observations

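Genes of remodeler and acetyltransferase families outside the symbol rule also changed in both directions between gPS and GSC. Of 12 tested genes of the INO80, SRCAP and TIP60 remodelers, 4 rose, 2 fell and 6 did not pass in gPS (limma, adjusted p under 0.05), and in ESC the counts were 3, 2 and 7. Ruvbl2, an AAA ATPase shared by these complexes, rose by 1.94 (log2, adjusted p = 9.21e-06) in gPS, and Ino80c by 1.60 (log2, adjusted p = 7.7e-06). Ep400, the ATPase of the TIP60 complex, fell by 1.61 (log2, adjusted p = 4.8e-05), and Yeats4, a reader of acetylated histones, fell by 1.25 (log2, adjusted p = 3.59e-05). Of 8 tested histone acetyltransferases, which oppose the deacetylases, 2 rose, 1 fell and 5 did not pass in gPS, with 3, 0 and 5 in ESC. Kat6b rose by 1.81 (log2, adjusted p = 5.18e-06) and Kat5 by 0.56 (log2, adjusted p = 0.0198), and Hat1 fell by 0.61 (log2, adjusted p = 0.00813). The share called was 50% and 37.5% in gPS, against 56.3% of all genes, and 41.7% and 37.5% in ESC, against 54.5%.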
